A study of Mus musculus with 12 samples.

Results

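The 10 genes described here encode proteins that bring fatty acids into a cell and store them as triglyceride in lipid droplets: Fabp4, Fabp5, Cd36, Lpl, Plin2, Dgat1, Dgat2, Pnpla2, Hilpda and Cidec. They were chosen by name, as the rows of the deposited count table whose gene symbol is one of these names. The table holds 52636 genes, of which 16679 had enough counts to be tested, and all 10 were among those tested. RNA was sequenced from Cx3cr1+ macrophages of mouse lung in 3 groups of 4 libraries. The saline WT group is labelled IL4Ra WT and saline, the bleomycin WT group IL4Ra WT and bleomycin, and the bleomycin KO group IL4Ra KO and bleomycin. Bleomycin injures the lung and is used to induce fibrosis in mice. The age, sex and strain of the animals, the time after bleomycin, the means by which Il4ra was deleted and the way the cells were isolated are not stated in the labels. Saline-treated macrophages with the deletion were not analysed here, so the genotypes are compared under bleomycin alone. Whether each library is a separate animal is not stated either, so p-values measure the spread between libraries, some of which may be technical.

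Lipoprotein lipase, made from Lpl, is secreted and splits the triglyceride of circulating lipoproteins into fatty acids. CD36 helps these cross the plasma membrane, and the fatty acid binding proteins FABP4 and FABP5 carry them inside the cell. The acyltransferases DGAT1 and DGAT2 complete the synthesis of triglyceride, which collects in droplets coated by perilipin 2 (Plin2), while CIDEC fuses small droplets into larger ones. The lipase ATGL (Pnpla2) starts the breakdown of stored triglyceride, and HILPDA, a small protein induced by low oxygen and by fatty acids, inhibits it. Alveolar macrophages clear the lipid-rich surfactant of the lung, and lipid-laden macrophages are a known feature of lung injury.

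Library quality was uneven. Total counts were 60598 in saline WT 2 and between 3534193 and 18051113 in the other 11 libraries. Saline WT 2 had counts for 4830 genes, against 17835 to 30283 elsewhere, and 3 counts in it equal 32.4 CPM (counts scaled by library size with trimmed mean of M values, TMM), against 0.185 to 0.730 CPM elsewhere. Across genes, the highest Spearman correlation with another library was 0.498 for saline WT 2, 0.658 for saline WT 1 and 0.730 for bleomycin WT 4, against 0.865 and 0.900 for the other saline libraries and 0.939 to 0.986 for the other 7 bleomycin libraries. Results are given for all 12 libraries and for the 10 that remain without saline WT 2 and bleomycin WT 4. Saline WT 1 is kept in both, although it correlated less with the others than bleomycin WT 4 did, and it was left out alone among the alternatives of the closing section. Il4ra, which checks the genotype labels, was at 473, 277, 235 and 343 CPM in bleomycin KO 1 to 4 and at 351, 626, 302 and 138 CPM in bleomycin WT. The groups overlapped, and the log2 fold change of bleomycin KO against bleomycin WT was -0.09 (SE 0.58, 95% interval -1.41 to 1.23). With 10 libraries it was -0.35 (95% interval -1.22 to 0.52). Both intervals include 0 and also lower levels in the KO libraries. The counts cover the whole gene, and the labels do not say which exons were deleted, so they do not show whether the deletion took place.

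Promoter sequence was at hand for 5 of the 10 genes (Cd36, Plin2, Pnpla2, Hilpda and Cidec), from RefSeq (GRCm38.p6). The 250 bases just upstream of the transcription start are shown for 3 of them that stand for the patterns below: Hilpda, which was higher in every bleomycin library than in every saline library, Cidec, which was lower in every one, and Plin2, the most abundant of the 10 per length. They are written 5′ to 3′ on the strand of the gene, and capitals mark matches to a searched motif. The windows are chr6:29272238-29272487 (plus strand) for Hilpda, chr6:113435761-113436010 (minus strand) for Cidec and chr4:86670060-86670309 (minus strand) for Plin2.
Hilpda: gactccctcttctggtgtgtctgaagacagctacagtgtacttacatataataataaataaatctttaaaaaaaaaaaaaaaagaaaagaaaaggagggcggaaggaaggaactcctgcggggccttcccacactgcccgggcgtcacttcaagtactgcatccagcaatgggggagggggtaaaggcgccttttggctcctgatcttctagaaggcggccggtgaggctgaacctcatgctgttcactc
Cidec: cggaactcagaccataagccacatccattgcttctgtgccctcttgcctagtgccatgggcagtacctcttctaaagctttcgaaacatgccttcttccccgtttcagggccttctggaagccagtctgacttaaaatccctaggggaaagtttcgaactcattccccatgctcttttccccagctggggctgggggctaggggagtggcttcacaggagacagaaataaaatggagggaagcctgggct
Plin2: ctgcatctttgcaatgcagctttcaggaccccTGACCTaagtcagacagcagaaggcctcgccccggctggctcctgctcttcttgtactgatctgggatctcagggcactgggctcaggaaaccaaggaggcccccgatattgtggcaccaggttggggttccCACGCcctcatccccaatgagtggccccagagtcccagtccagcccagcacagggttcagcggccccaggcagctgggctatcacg
Searched on both strands were the hypoxia response core (ACGTG or GCGTG), the nuclear receptor hexamer AGGTCA, a STAT6-type palindrome (TTC and GAA with 4 bases between them), the PU box GAGGAA and the AP-1 site TGANTCA. The Plin2 window holds 1 hypoxia response core, 86 bases upstream of the start and read on the opposite strand as CACGC, and 1 AGGTCA, 218 bases upstream and read as TGACCT. None of the 5 motifs occurs in the Hilpda, Cidec or Pnpla2 window, and the Cd36 window has 1 AGGTCA. For Hilpda and Cidec 2 starts are listed, and only the window of the start nearest to the GENCODE gene start was searched. The start used for Cd36 lies 52905 bases from the GENCODE start, inside the gene, so other start sites were not covered. Among 32851 promoter windows of this length, 38.6% hold the hypoxia core, 14.0% AGGTCA, 5.85% the palindrome, 23.3% the PU box and 6.75% the AP-1 site. A match here is a description of letters, and the data hold no measure of binding at these sites. The windows are 48.4% G and C for Hilpda, 52.8% for Cidec and 61.6% for Plin2, against a median of 52.4% over all windows.

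The first comparison, bleomycin WT against saline WT, shows how these genes differed with bleomycin where the receptor was labelled intact. Fabp5, Hilpda and Lpl were 2.33- to 4.28-fold higher in bleomycin WT, and Cidec and Dgat2 were 18.4- and 4.27-fold lower. None of the 10 passed edgeR's quasi-likelihood test at a Benjamini-Hochberg adjusted p under 0.05 with all 12 libraries; of all genes tested, 0.024% passed. These 5 had an unadjusted p under 0.05 (50% of the 10, against 14.7% of all genes tested): 3 were higher, beside 8.47% of all genes, and 2 lower, beside 6.19%. DESeq2, and limma-voom with sample quality weights, each called 4 of the 10 (Fabp5, Hilpda, Dgat2 and Cidec), beside 3.21% and 1.91% of all genes tested. Without saline WT 2 and bleomycin WT 4, edgeR called Fabp5 alone, against 0.431% of 18812 genes tested in either direction and 0.287% called higher. The groups did not overlap for Fabp5 and Hilpda, higher in every bleomycin WT library (4.93% of all genes tested), and for Cidec, lower in every one (0.929%). With 10 libraries Lpl joined the former (10.9% of all genes tested) and Cidec stayed the latter (9.72%). The median log2 fold change of the 10 was 0.81, against 0.08 for all genes tested. It was 0.14 against -0.14 with 10 libraries, so the median depended on the 2 libraries that stood apart.

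The second comparison, bleomycin KO against bleomycin WT, asks what differed with the receptor genotype under bleomycin. Between these groups 0 of the 10 genes passed in edgeR, as did 0% of all genes tested. At an unadjusted p under 0.05, 0 of the 10 were higher (0.186% of all genes tested) and 1, Dgat1, was lower (3.69%; 3.88% in either direction), and its difference changed sign without bleomycin WT 4. DESeq2 and limma-voom also called 0 of the 10 and 0% of all genes tested. No gene of the 10 was separated between the groups in either direction (0.905% of all genes tested were higher and 0.594% lower without overlap with 12 libraries, and 1.36% and 1.82% with 10). The median log2 fold change of the 10 was -0.20 with 12 libraries and -0.05 with 10, against -0.01 and -0.02 for all genes tested.

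The third comparison sets bleomycin KO against the same 4 saline WT libraries, so it shares its controls with the first and is not independent of it. Fabp5, Hilpda and Lpl were 2.35- to 4.74-fold higher, and Cidec and Dgat2 were 27.4- and 3.20-fold lower. Of the 10 genes 0 passed in edgeR with 12 libraries, beside 0.018% of all genes tested, and the same 5 as in the first comparison had an unadjusted p under 0.05 (9.03% of all genes tested), 3 higher (2.96%) and 2 lower (6.07%). DESeq2 called 2 (Fabp5 and Cidec), beside 2.32% of all genes tested, and limma-voom called 3 (those and Dgat2), beside 1.39%. With 10 libraries edgeR called Fabp5, beside 0.643% of all genes tested in either direction and 0.377% called higher. Fabp5, Lpl and Hilpda were higher in every bleomycin KO library than in every saline library (8.17% of all genes tested), and Cidec was lower in every one (1.04%), as with 10 libraries (8.14% and 7.89% of all genes tested). In bulk RNA, fewer cells of a type and less RNA per cell cannot be told apart.

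**Figure D1:**
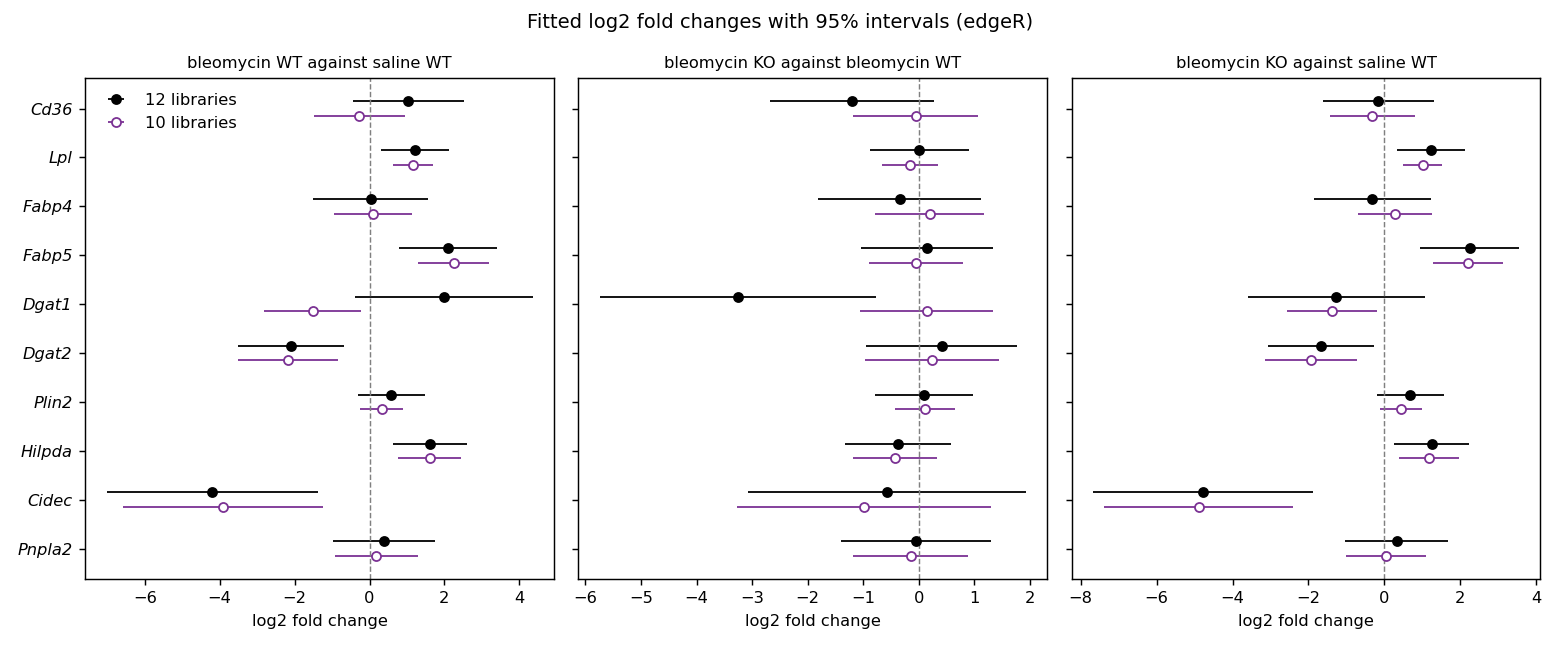
Log2 fold changes of the 10 genes (horizontal axis, log2 scale) in the 3 comparisons, from edgeR on all 12 libraries and on the 10 without saline WT 2 and bleomycin WT 4, with bars for 95% intervals. Fabp5, Hilpda and Lpl lie above 0 and Cidec and Dgat2 below 0 in both comparisons with saline WT, while Dgat1 and Cd36 change by more than 1 log2 unit in the comparisons that use bleomycin WT when the 2 libraries are left out.

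Of the genes acting at the cell surface, Lpl (ENSMUSG00000015568, GRCm38 chromosome 8, 68880491 to 68907448, plus strand) was at 618, 313, 923 and 604 CPM in saline WT 1 to 4. In bleomycin WT 1 to 4 it was at 1195, 1928, 1761 and 876 CPM, and in bleomycin KO 1 to 4 at 1534, 1495, 1205 and 1571 CPM. All bleomycin KO libraries and 3 of the 4 bleomycin WT libraries lay above every saline library, and the exception was bleomycin WT 4. The log2 fold change against saline WT was 1.22 (SE 0.40, edgeR adjusted p = 0.230) in bleomycin WT and 1.23 (SE 0.40, adjusted p = 0.351) in bleomycin KO. With 10 libraries these were 1.16 and 1.01, with edgeR adjusted p-values of 0.0618 and 0.0731. Between the genotypes Lpl differed by a log2 fold change of 0.01 (95% interval -0.88 to 0.90), and the groups overlapped.

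Cd36 (ENSMUSG00000002944, chromosome 5, 17781690 to 17888801, minus strand) was at 311, 270, 595 and 506 CPM in saline WT, at 283, 190, 713 and 2284 CPM in bleomycin WT and 216, 310, 348 and 638 CPM in bleomycin KO. Bleomycin WT 4 was the highest library, and all other values overlapped between the groups. The log2 fold change of bleomycin WT against saline WT was 1.04 with 12 libraries and -0.27 with 10, and that of bleomycin KO against bleomycin WT was -1.20 and -0.05. Leaving out bleomycin WT 4 alone gave -0.02 for the first of these. Capillary endothelium makes CD36 as well. The sum of its 10 markers was highest in bleomycin WT 4, at 708 CPM against 77.5 to 480 CPM in the other libraries. Calcrl made up 477 CPM of this sum, while Pecam1 was at 3.20 CPM, the lowest of its group. The part of endothelial RNA in the Cd36 level of bleomycin WT 4 was not tested.

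**Figure D2:**
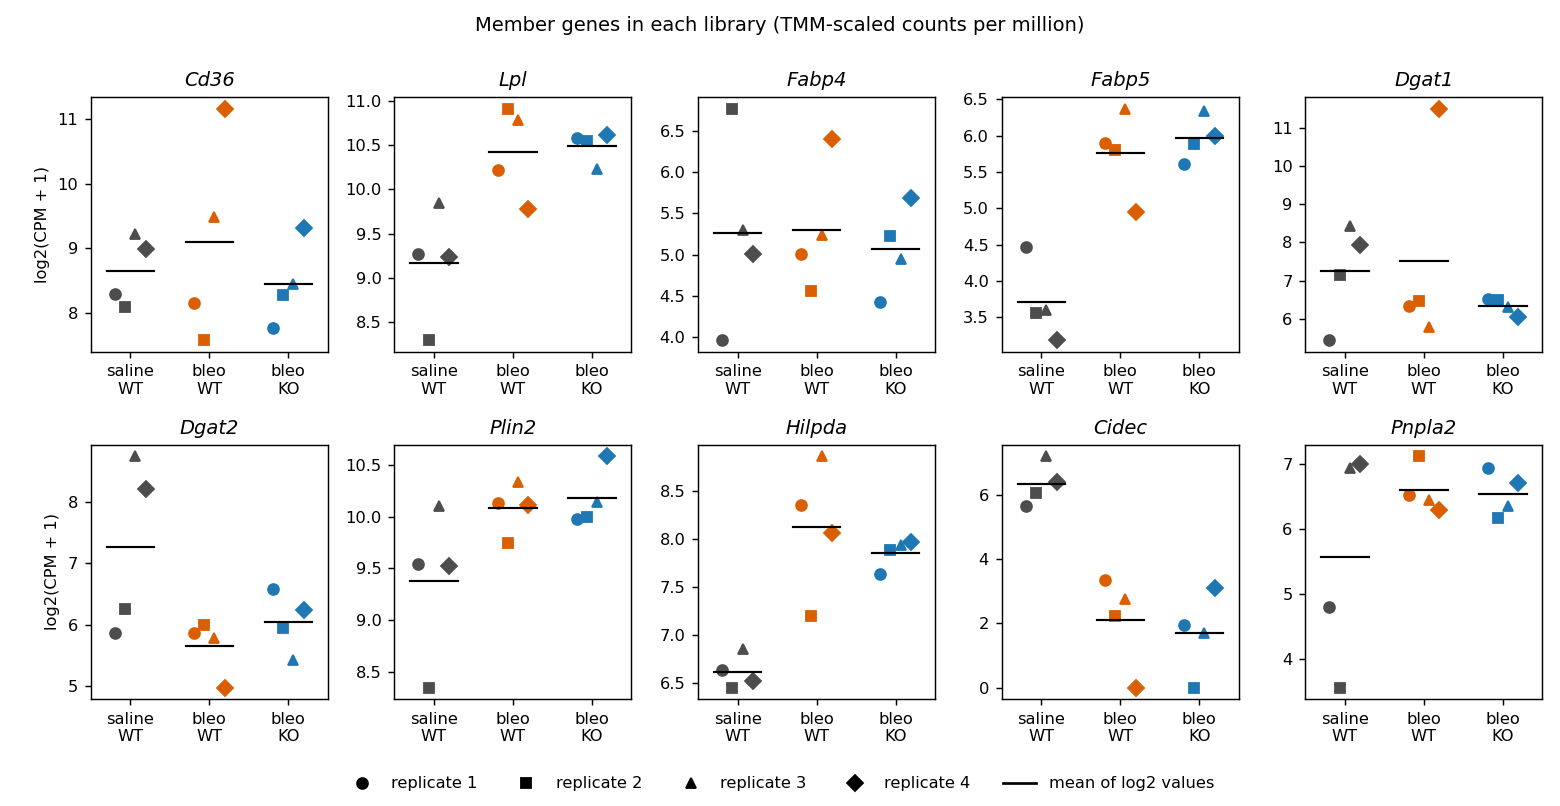
Level of each of the 10 genes as log2(CPM + 1) (vertical axis, TMM-scaled) in the saline WT, bleomycin WT (bleo WT) and bleomycin KO (bleo KO) groups, with a point for each library, shaped by replicate number, and a line for the mean of the log2 values. Fabp5, Hilpda and Lpl sit higher and Cidec lower in the bleomycin groups, and bleomycin WT 4 stands alone at 2881 CPM for Dgat1.

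Among the binding proteins, Fabp5 (ENSMUSG00000027533, chromosome 3, 10012548 to 10016607, plus strand) had the lowest median level per length of the 10 in saline WT, although Pnpla2 was lower in saline WT 1 and 2 and Fabp4 in saline WT 1. Its level was 21.2, 10.8, 11.2 and 8.11 CPM in saline WT 1 to 4, where the value of saline WT 2 rests on 1 count (exact Poisson 95% interval 0.274 to 60.2 CPM, for counting error only). It was 58.4, 55.0, 81.6 and 29.9 CPM in bleomycin WT and 47.8, 58.3, 80.2 and 62.9 CPM in bleomycin KO. Every bleomycin library lay above every saline library, and the bleomycin groups overlapped. On the log2 scale it differed by 2.10 (SE 0.57, edgeR adjusted p = 0.216) in bleomycin WT against saline WT and 2.24 (SE 0.58, edgeR adjusted p = 0.208) in bleomycin KO against saline WT. With 10 libraries Fabp5 rose, by 2.24 (edgeR adjusted p = 0.0487) and 2.19 (edgeR adjusted p = 0.0437). Between the genotypes the log2 fold change was 0.15 (95% interval -1.05 to 1.34). The annotation holds a copy named Fabp5l2, at 0 to 2.84 CPM, and nothing in the labels says how reads matching both were counted, so the Fabp5 level is uncertain to that extent.

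Fabp4 (ENSMUSG00000062515, chromosome 3, 10204088 to 10208576, minus strand), which lies on the same chromosome as Fabp5 and is known from adipocytes and macrophages, overlapped between all groups. It was at 14.6, 108, 38.2 and 31.1 CPM in saline WT, at 31.2, 22.5, 36.7 and 83.7 CPM in bleomycin WT and 20.5, 36.3, 29.8 and 50.4 CPM in bleomycin KO. The value of 108 CPM is 10 counts in saline WT 2. Its log2 fold changes were 0.03, -0.34 and -0.32 in the 3 comparisons, none past the test, and their 95% intervals reached from -1.86 to 1.57. Set per length, Fabp5 stood at 1.32, 0.0908, 0.265 and 0.236 times the level of Fabp4 in saline WT 1 to 4. The ratio was 1.70, 2.22, 2.02 and 0.324 in bleomycin WT, and it was 2.12, 1.46, 2.45 and 1.13 in bleomycin KO. Fabp5 was thus the more abundant of the pair in 7 of 8 bleomycin libraries, all but bleomycin WT 4, and in 1 of 4 saline libraries.

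Of the triglyceride-forming enzymes, Dgat2 (ENSMUSG00000030747, chromosome 7, 99153658 to 99182719, minus strand) was at 57.2, 75.7, 429 and 295 CPM in saline WT 1 to 4. It was at 57.2, 62.6, 53.8 and 30.4 CPM in bleomycin WT and 95.2, 60.7, 41.9 and 74.7 CPM in bleomycin KO. Saline WT 3 and 4 were at least 3 times above every bleomycin library, while saline WT 1 and 2 lay within their range. Fitted log2 fold changes were -2.10 (SE 0.63, edgeR adjusted p = 0.219) for bleomycin WT and -1.68 (SE 0.62, edgeR adjusted p = 0.427) for bleomycin KO against saline WT. The same 2 saline libraries carried the highest summed level of 10 neutrophil markers, 28944 and 17481 CPM, against 557 to 3600 CPM in the other 10 libraries, and the part of neutrophil RNA in the Dgat2 difference was not tested.

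Dgat1 (ENSMUSG00000022555, chromosome 15, 76502015 to 76511953, minus strand) was at 42.6, 141, 345 and 245 CPM in saline WT and at 80.1, 87.6, 53.8 and 2881 CPM in bleomycin WT. In bleomycin KO it was at 90.8, 88.6, 78.6 and 65.7 CPM. Saline WT 3 and 4 were again high, and bleomycin WT 4 was at least 8 times above every other library. With 12 libraries the log2 fold change was 1.99 (SE 1.05) in bleomycin WT against saline WT and -3.26 (SE 1.10, unadjusted p = 0.00911, edgeR adjusted p = 0.934) in bleomycin KO against bleomycin WT. With 10 libraries they were -1.52 and 0.14, so both changed sign, and neither passed the test. Leaving out bleomycin WT 4 alone gave -1.32 and 0.12. Against saline WT the log2 fold change of bleomycin KO was -1.27 with 12 libraries and -1.38 with 10. Per length, Dgat1 stood at 114 times the level of Dgat2 in bleomycin WT 4 and at 0.892 to 2.25 times in the other 11 libraries.

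On the droplet itself, Plin2 (ENSMUSG00000028494, chromosome 4, 86648386 to 86670060, minus strand), whose product coats droplets in most cells, was abundant in every group. It was at 745, 324, 1098 and 733 CPM in saline WT, at 1121, 857, 1293 and 1107 CPM in bleomycin WT and 1007, 1022, 1128 and 1534 CPM in bleomycin KO. Saline WT 3 lay within the bleomycin values and the other saline libraries lay below them. The log2 fold change against saline WT was 0.59 (95% interval -0.30 to 1.47) in bleomycin WT and 0.69 (95% interval -0.20 to 1.57) in bleomycin KO, and neither passed.

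Cidec (ENSMUSG00000030278, chromosome 6, 113424634 to 113435760, minus strand), best known for the large single droplet of fat cells, had the largest log2 fold change of the 10 against saline WT in both comparisons. It was at 48.6, 64.9, 145 and 83.7 CPM in saline WT 1 to 4, of which saline WT 2 rests on 6 counts. It was at 9.19, 3.71, 5.76 and 0 CPM in bleomycin WT and 2.83, 0, 2.24 and 7.63 CPM in bleomycin KO. A count of 0 allows up to 0.533 CPM in bleomycin WT 4 and 0.198 CPM in bleomycin KO 2 (3 counts each). The highest bleomycin value, 9.19 CPM, was below the lowest saline value, 48.6 CPM. Relative to saline WT, its log2 fold change was -4.20 (SE 1.25, edgeR adjusted p = 0.219) in bleomycin WT and -4.78 (SE 1.28, edgeR adjusted p = 0.232) in bleomycin KO against saline WT. With 10 libraries these were -3.91 (edgeR adjusted p = 0.174) and -4.89 (edgeR adjusted p = 0.0709). Cidec per Plin2, set per length, was 0.0702 to 0.215 in saline WT, 0 to 0.00882 in bleomycin WT and 0 to 0.00535 in bleomycin KO.

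Cells other than macrophages can also make Cidec, fat cells above all. The summed level of 10 adipocyte markers was 0 to 43.3 CPM in saline WT, 0.711 to 11.7 CPM in bleomycin WT and 1.38 to 8.77 CPM in bleomycin KO. Of these markers 1 of 10 had enough counts to be tested; Cfd was at 0 in saline WT, and Adipoq and Cfd were at 0 in bleomycin KO. The part of fat cells in the Cidec difference was not tested. Alveolar type II markers moved in the same direction as Cidec, at 1242 to 1796 CPM in saline WT, 243 to 782 CPM in bleomycin WT and 148 to 513 CPM in bleomycin KO, and their part in the Cidec difference was not tested. Neutrophil markers were at 2551 to 28944 CPM in saline WT and 557 to 1827 CPM in the bleomycin groups, likewise not tested.

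At the step of lipolysis, Hilpda (ENSMUSG00000043421, chromosome 6, 29272488 to 29275446, plus strand) was at 98.5, 86.5, 114 and 90.8 CPM in saline WT 1 to 4. It was at 326, 146, 465 and 267 CPM in bleomycin WT and 198, 236, 245 and 250 CPM in bleomycin KO. Every bleomycin library was above every saline library. The value of saline WT 2 rests on 8 counts, and its exact Poisson 95% interval, 37.3 to 170 CPM, covers that of bleomycin WT 2. The log2 fold change against saline WT was 1.62 (SE 0.44, edgeR adjusted p = 0.206) in bleomycin WT and 1.24 (SE 0.43, edgeR adjusted p = 0.388) in bleomycin KO. With 10 libraries these were 1.61 and 1.18, with edgeR adjusted p-values of 0.0831 and 0.134. Between the genotypes it was -0.37 (95% interval -1.33 to 0.58), and the bleomycin groups overlapped.

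Pnpla2 (ENSMUSG00000025509, chromosome 7, 141455198 to 141460743, plus strand), the lipase that HILPDA inhibits, was at 26.8, 10.8, 121 and 127 CPM in saline WT. It was at 90.7, 138, 86.4 and 77.1 CPM in bleomycin WT and 122, 71.1, 80.9 and 104 CPM in bleomycin KO. The saline libraries lay on both sides of the bleomycin values, with saline WT 2 on 1 count. Its log2 fold changes of 0.38, -0.06 and 0.32 in the 3 comparisons did not pass, and the interval of the first reached from -0.98 to 1.74.

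Levels were compared between genes as CPM per kilobase of exon, the median of 4 libraries. In saline WT the order was Plin2 (391), Lpl (148), Cd36 (116), Dgat1 (102), Hilpda (85.8), Dgat2 (81.9), Cidec (42.3), Fabp4 (38.7), Pnpla2 (28.2) and Fabp5 (11.1), and every gene overlapped the next in that order. Plin2 and Lpl also came first in bleomycin WT, at 590 and 359 per kilobase, followed by Hilpda at 269 and Cd36 at 141. Fabp5 moved from the lowest place to the fifth, at 57.5 per kilobase, and Cidec to the lowest, at 2.70 per kilobase. The order in bleomycin KO was identical to that in bleomycin WT, from Plin2 (569), Lpl (368), Hilpda (218), Cd36 (93.0) and Fabp5 (61.4) to Dgat1 (44.3), Fabp4 (36.9), Pnpla2 (35.2), Dgat2 (29.9) and Cidec (1.44). There Plin2 did not overlap Lpl, Lpl did not overlap Hilpda, Fabp5 did not overlap Dgat1 and Dgat2 did not overlap Cidec, while the other neighbours overlapped. In bleomycin WT the neighbours without overlap were Pnpla2 and Dgat2, and Dgat2 and Cidec.

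**Figure D3:**
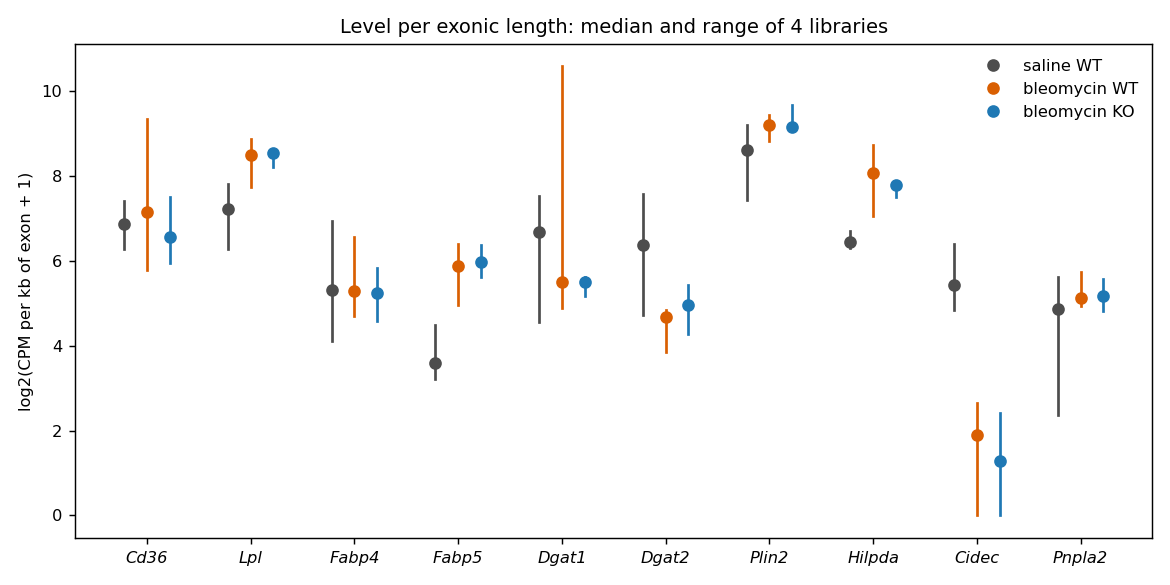
Levels of the 10 genes as log2(CPM per kilobase of exon + 1) (vertical axis) in the 3 groups, with a point for the median and a bar from the lowest to the highest of 4 libraries. Plin2 is highest in each group, and Cidec is lowest in the bleomycin groups, at medians of 2.70 and 1.44, against 42.3 in saline WT.

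Lpl and Cd36, which act in sequence at the cell surface, differed in their balance. Per length, Lpl stood at 0.997 to 1.71 times the level of Cd36 in saline WT and at 2.12 to 6.11 times in bleomycin KO. In bleomycin WT 1 to 4 the ratio was 3.63, 8.72, 2.12 and 0.330, so that every bleomycin library but bleomycin WT 4 was above every saline library. The summed level of the 10 genes was 1405 to 3820 CPM in saline WT, 3251 to 7635 CPM in bleomycin WT and 3239 to 4358 CPM in bleomycin KO. Lpl made up 22.2% to 31.1% of that sum in saline WT, 36.8%, 55.2%, 38.7% and 11.5% in bleomycin WT 1 to 4 and 36.1% to 46.0% in bleomycin KO, and Dgat1 made up 37.7% in bleomycin WT 4.

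**Figure D4:**
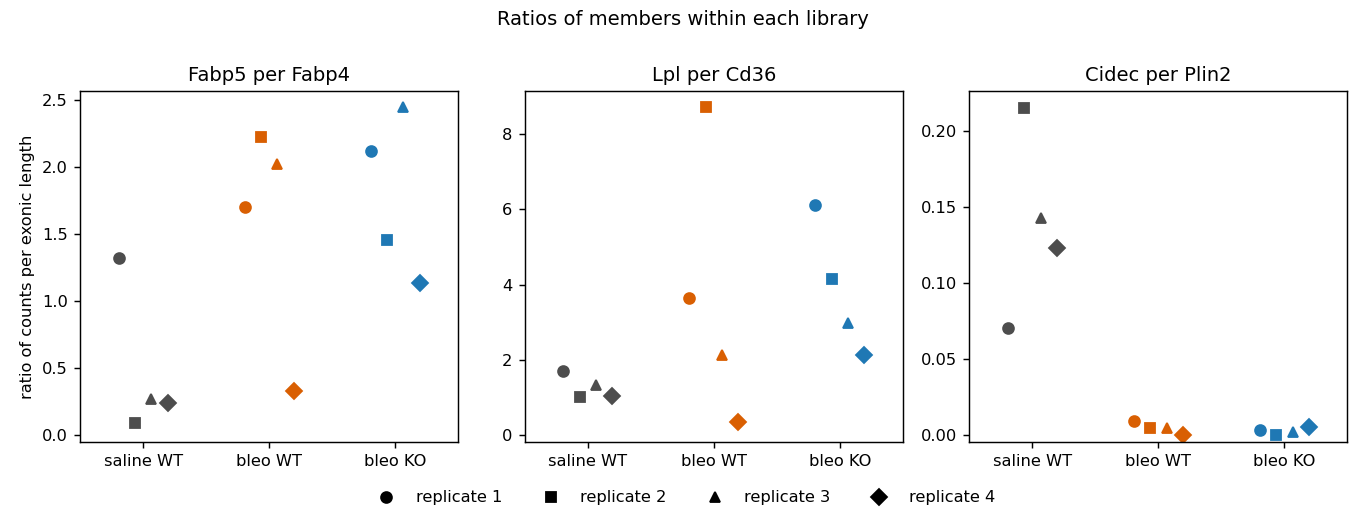
Ratios of counts per exonic length within each library (vertical axes, linear) for 3 pairs of the 10 genes, with a point for each of the 12 libraries, by group (bleo is bleomycin) and shaped by replicate number. The ratio of Fabp5 to Fabp4 is above 1 in 7 of 8 bleomycin libraries, that of Lpl to Cd36 is 0.330 in bleomycin WT 4 and at least 2.12 in the other bleomycin libraries, and that of Cidec to Plin2 is lower in every bleomycin library than in every saline library.

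Other genes of the pathway were followed in 4 lists. With 12 libraries, edgeR called 0 genes higher and 0 lower in each list and comparison: of 24 genes of fatty acid uptake, binding and activation 20 were tested, of 18 of triglyceride synthesis 13, of 20 of droplet coat, assembly and lipolysis 14, and of 18 lipid-sensing transcription factors 17. In bleomycin WT against saline WT an unadjusted p under 0.05 was found for 3 higher and 3 lower uptake genes, 0 and 2 synthesis genes, 1 and 4 droplet genes and 6 and 1 transcription factors, beside 8.47% higher and 6.19% lower among all genes tested. The median log2 fold changes of these lists were 0.28, -0.26, -0.34 and 0.89, against 0.08 for all genes tested. In bleomycin KO against bleomycin WT the medians were -0.02, -0.17, -0.08 and -0.12. There 1 gene had an unadjusted p under 0.05, beside 3.88% of all genes tested. This was the transcriptional repressor gene Bhlhe41, at a log2 fold change of -3.81 with 12 libraries and -0.23 with 10. Cebpb, of the same list, was at -1.36 (edgeR unadjusted p = 0.0636) and -1.16 (edgeR unadjusted p = 0.0627). In bleomycin KO against saline WT the medians were 0.01, -0.23, -0.30 and 0.44.

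Of the droplet list, G0s2, whose product inhibits the same lipase as HILPDA, was at 525 ± 396 CPM in saline WT, 81.6 ± 53.5 CPM in bleomycin WT and 69.2 ± 7.26 CPM in bleomycin KO (SD, n = 4 each). Its log2 fold change was -2.69 (SE 0.63, edgeR adjusted p = 0.175) in bleomycin WT and -2.93 (SE 0.64, edgeR adjusted p = 0.207) in bleomycin KO against saline WT. With 10 libraries G0s2 fell in bleomycin KO (log2 fold change -3.09, edgeR adjusted p = 0.0438) and missed the threshold in bleomycin WT (log2 fold change -3.37, edgeR adjusted p = 0.0522). Hilpda and G0s2, both inhibitors of the lipase, thus differed from saline WT in opposite directions. Neutrophils express G0s2 strongly, and the neutrophil markers given above were also highest in saline WT, with their part in the G0s2 difference not tested. Mgll, the lipase that acts last on triglyceride, was at 76.6 ± 57.5, 16.9 ± 10.3 and 15.5 ± 7.04 CPM in the 3 groups (SD, n = 4 each), with edgeR adjusted p-values of 0.232 and 0.326 against saline WT.

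Of the uptake list, Fabp1, a binding protein also counted among alveolar macrophage markers, was at 38.8 ± 29.5 CPM in saline WT, 1.18 ± 1.19 CPM in bleomycin WT and 1.41 ± 1.26 CPM in bleomycin KO (SD, n = 4 each). Its log2 fold changes of -5.10 and -4.88 against saline WT had edgeR adjusted p-values of 0.201 and 0.232. Fabp7 had 0 counts in all saline libraries and stood at 4.05 ± 5.58 CPM in bleomycin WT and 2.44 ± 0.805 CPM in bleomycin KO. The acyl-CoA synthetase gene Acsl4 was at 34.9 ± 25.6, 204 ± 237 and 83.6 ± 10.2 CPM in the 3 groups (SD, n = 4 each), with every bleomycin library above every saline library and edgeR adjusted p-values of 0.226 and 0.707. Bleomycin WT 4 held 559 CPM of Acsl4, and with 10 libraries the 3 means were 47.2, 85.9 and 84.1 CPM and the fold over saline WT in bleomycin WT went from 5.25 to 1.82. Slc27a1, a fatty acid transporter, was the 1 uptake gene that edgeR called higher in bleomycin WT with 10 libraries.

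Among the transcription factors, Ppargc1b, a coactivator of genes for oxidative metabolism, was at 2.03 ± 2.57, 35.0 ± 41.3 and 12.03 ± 4.36 CPM in saline WT, bleomycin WT and bleomycin KO (SD, n = 4 each). Cebpa, which acts in both fat cells and macrophages, was at 30.0 ± 21.0, 103 ± 54.1 and 49.8 ± 25.3 CPM. Epas1, which encodes the hypoxia-inducible factor HIF-2 alpha, was at 92.6 ± 118, 15.4 ± 8.18 and 11.9 ± 9.61 CPM, lower in every bleomycin library than in every saline library. Single libraries carried some of these means: Epas1 was at 270 CPM in saline WT 2, on 25 counts, and with 10 libraries its means were 33.9, 11.7 and 11.9 CPM. Its log2 fold change against saline WT then went from -2.44 to -1.54 in bleomycin WT and from -2.81 to -1.51 in bleomycin KO. Likewise, the 10-library means of Ppargc1b were 2.74, 14.8 and 12.1 CPM. None of these passed in edgeR, with adjusted p-values of 0.206, 0.244 and 0.249 in bleomycin WT against saline WT. Of the synthesis list, the acyltransferase gene Agpat4 was at 159 ± 48.9, 82.5 ± 21.2 and 80.6 ± 10.8 CPM, with edgeR adjusted p-values of 0.341 and 0.536 against saline WT.

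The cell type labelled was checked with marker lists. The summed level of 10 general macrophage genes was 15533 to 36645 CPM in saline WT, 33206 to 54233 CPM in bleomycin WT and 51059 to 71370 CPM in bleomycin KO, the lowest values of the WT groups being those of saline WT 2 and bleomycin WT 4. These sums came mostly from Lyz2, at means of 19981.9, 31009.3 and 42108.5 CPM in the 3 groups. The 12 alveolar macrophage markers summed to 1719 to 5435, 1589 to 3067 and 2010 to 2627 CPM, sums in which Chil3 was the most abundant gene. Of the 12, 10 had a log2 fold change below 0 in each comparison with saline WT. The medians were -1.14 in bleomycin WT and -0.81 in bleomycin KO. At an unadjusted p under 0.05 in edgeR, 5 and 4 were lower, beside 6.19% and 6.07% of all genes tested. In turn, 1 and 0 were higher, beside 8.47% and 2.96%. None was called in edgeR with 12 libraries. With 10 libraries 2 were called lower in bleomycin WT (Ear1 and Krt19) and 3 in bleomycin KO (those and Krt79) than in saline WT. Of all genes tested, 0.431% and 0.643% were then called in either direction. The 10 fibroblast markers summed to 368 to 1190, 690 to 1114 and 643 to 1173 CPM, mostly from Gsn, at means of 482, 562 and 529 CPM. Col3a1, a fibrillar collagen gene, was at 15.8 ± 19.0, 116 ± 25.0 and 115 ± 83.5 CPM (SD, n = 4 each), higher in every bleomycin WT library than in every saline library (edgeR adjusted p = 0.237), and Inmt fell in both bleomycin groups with 10 libraries. Dendritic cell markers overlapped between all groups, at 10.8 to 1343, 317 to 569 and 468 to 603 CPM. The 10 capillary endothelium markers summed to 216 to 480 CPM in saline WT and 77.5 to 168 CPM in every bleomycin library but bleomycin WT 4, and 8 of 10 in bleomycin WT and 10 of 10 in bleomycin KO had a log2 fold change below 0 against saline WT (medians -1.81 and -1.86). Alveolar type II and neutrophil sums were higher in every saline library than in every bleomycin library, as Cidec was. Against saline WT, edgeR with 10 libraries also called the macrophage marker Fcgr1 higher and the neutrophil marker S100a9 lower in both bleomycin groups. Egfl7, Sftpc, S100a8 and Retnlg were called lower in bleomycin KO alone. The alveolar macrophage, endothelial, alveolar type II and neutrophil lists had median log2 fold changes below 0 against saline WT in both bleomycin groups. Cidec and Dgat2 were also below 0 there. The endothelial sum was highest in bleomycin WT 4, at 708 CPM, of which Calcrl made up 477 CPM. Dgat2 was lowest in that library, at 30.4 CPM. The alveolar macrophage sums overlapped between the groups. The part of these cell types in the differences of the 10 genes from saline WT was not tested.

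**Figure D5:**
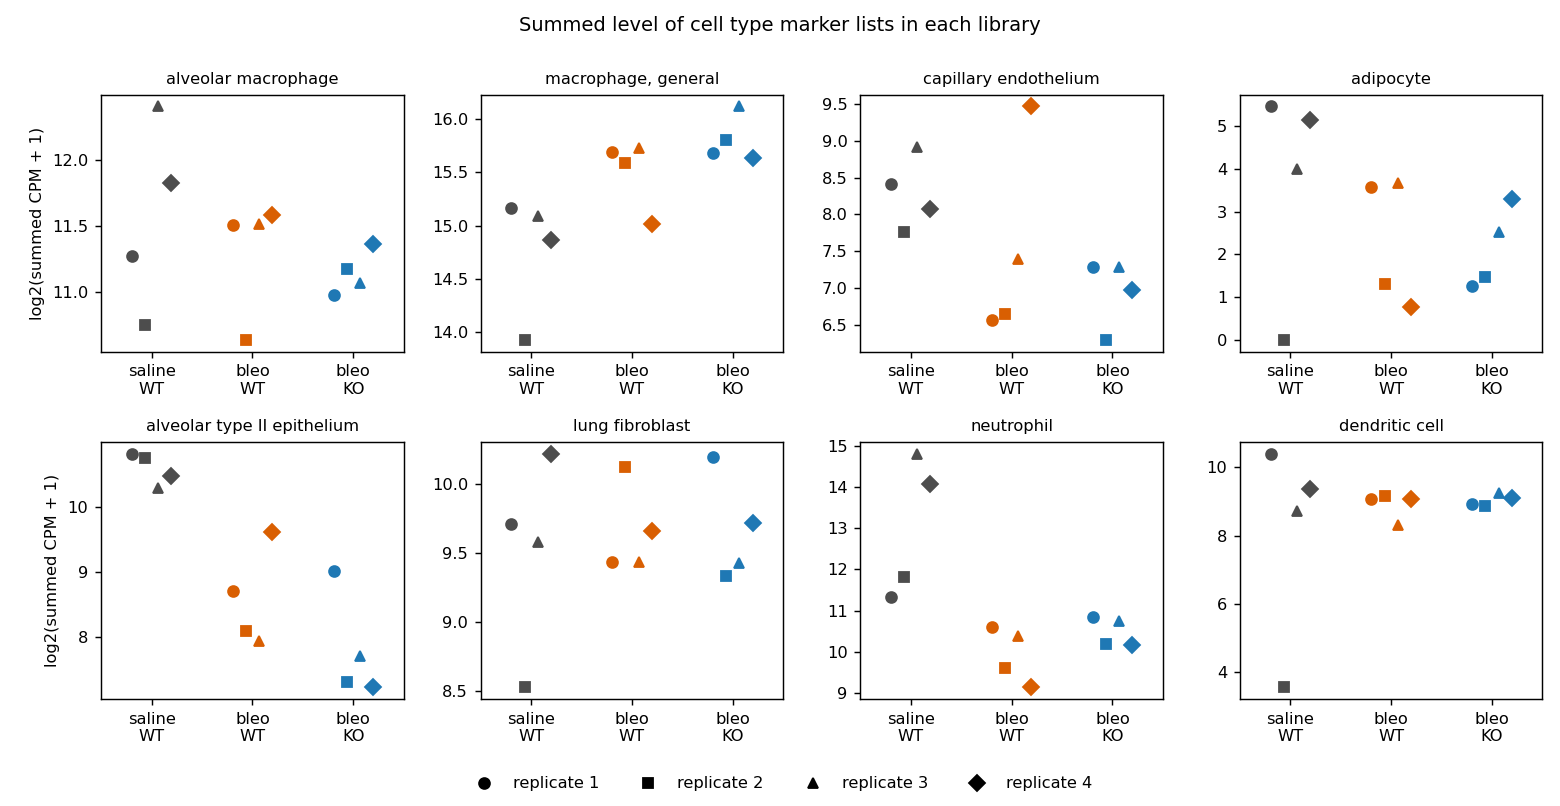
Summed level of the marker genes of 8 cell types as log2(CPM + 1) (vertical axis, TMM-scaled), with a point for each library, by group (bleo is bleomycin) and shaped by replicate number. Alveolar type II markers lie at 1242 to 1796 CPM in saline WT and at 148 to 782 CPM in the bleomycin groups, and macrophage markers are at 15533 CPM or more in every library.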

How the data were processed

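The authors deposited raw counts per Ensembl gene in 12 libraries and a gene table with symbols and exonic sizes, used here for levels per kilobase. Per the labels' protocols, cDNA came from 2 ng of RNA by SMART-Seq v4, which does not mark strand, and Nextera XT libraries were read as single-end 50-base reads. The submitters' processing notes name GRCm38 (mm10), GSNAP, Partek and limma, without versions. Library sizes were scaled by TMM, and differences were tested in R 4.3.3 with edgeR 4.0.16 (filterByExpr, quasi-likelihood, robust, group alone, all 12 libraries), with Benjamini-Hochberg adjustment over 16679 genes. DESeq2 1.42.0 and limma-voom (limma 3.58.1) were among the alternatives. Standard errors were derived from the log2 fold change and the F statistic of the test. The 95% intervals use 9 residual degrees of freedom, or 7 with 10 libraries. They need not match the p-values of the test. Agpat4 in bleomycin WT against saline WT had an edgeR unadjusted p = 0.0496 and an interval of -1.95 to 0.06. The common biological coefficient of variation was 0.862. PCR copies are not independent molecules, so counting intervals and the floor of 3 counts leave out other error.

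The members, the gene lists and the fit without saline WT 2 and bleomycin WT 4 were chosen with earlier results of these data known. Named were the 10 genes, Il4ra, the 2 genes of each pathway list with the smallest p in each comparison, and the 2 most abundant genes of each marker list; the genes that edgeR called with 10 libraries, and the markers at 0, were named after their values were seen. Of those named by the rule, values are printed for those that the results turn on. Gene positions and types came from GENCODE vM21 (GRCm38), and no other gene overlaps the exons of the 10. No pair of libraries agreed within sampling noise (lowest chi-square per degree of freedom 18.6). The test was run on simulated counts of 16679 genes, 100 changed 16-fold and 100 changed 4-fold: it found 74% and 6% of these in bleomycin WT against saline WT (4 of 84 calls false), 81% and 7% in bleomycin KO against bleomycin WT (1 of 89) and 79% and 8% in bleomycin KO against saline WT (3 of 90).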

Additional observations from a re-analysis of the deposited data

Results flagged for a closer look

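Dgat1 in bleomycin WT 4 stood far from the rest of its group, at 2881 CPM against 53.8 to 87.6 CPM in the other 3 libraries. Its gap to the nearest library took up 0.988 of the range of the group, above Dixon's 95% critical value for 4 libraries. This was 1 of 30 sets of a gene and a group that were examined, and chance alone marks about 1 in 20, or 1.5 of 30. Dgat1 had 16213 counts in this library. Its nearest neighbour Hsf1, which lies 102 bases away, was at 0.178 CPM there, against 0 to 40.1 CPM (median 24.2) in the other libraries. Scrt1, 4250 bases away, was at 0.711 CPM there and at 0 in the others. Fbxl6, 23768 bases away, was at 4.80 CPM there, against 0 to 47.7 CPM (median 26.8). The cause of the Dgat1 level was not tested. A rule chosen after the values were seen took genes at 100 CPM or more in 1 library and over 8 times their level in every other. It marked 332 genes in bleomycin WT 4 (1.99% of those tested). Saline WT 2 had 86 such genes, and each other library had 0 to 2. Dgat1 was the 1 member among these genes.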

How the results depend on the processing

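In all 19 alternatives run, Fabp5, Hilpda, Lpl and Plin2 stayed higher and Cidec and Dgat2 lower in both bleomycin groups than in saline WT. Of the 10 genes in bleomycin WT against saline WT, DESeq2 called 4, limma-voom 4, no filter on low counts 1 (Cidec) and 10 libraries 1. In bleomycin KO against bleomycin WT no filter called 1, Dgat1, which was at 2881 CPM in bleomycin WT 4. In bleomycin KO against saline WT the values were 2, 3, 1 (Cidec) and 1. Leaving out each library in turn called 0 of the 10. Of all genes, 4, 0 and 3 were called in the 3 comparisons. These counts were 512, 0 and 370 with DESeq2, 319, 0 and 232 with limma-voom, 780, 243 and 694 with no filter, 0, 0 and 1 with the 2 groups compared alone, 1, 0 and 1 with RLE size factors and 81, 0 and 121 with 10 libraries. They ranged over 1 to 11, 0 to 0 and 0 to 18 when each library was left out in turn, with 11 and 18 without bleomycin WT 4 and 10 in the third comparison without saline WT 2. The cause was not tested. RLE moved the median log2 fold change of all genes from 0.08 to -0.09 in the first comparison and from 0.04 to -0.12 in the third.

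The replicate numbers did not pair the libraries: 12 same-numbered pairs correlated at -0.182 to 0.053, and 0 libraries matched best with their own number. With the replicate block, 2, 0 and 1 genes were called in the 3 comparisons, and 0 of the 10.

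Several log2 fold changes changed sign, among them those of Dgat1 and Cd36, which were not near 0 with 12 libraries. In bleomycin WT against saline WT Fabp4 was -0.14 with DESeq2, -0.02 with limma-voom, -0.0071 with no filter, -0.048 with the 2 groups alone and -0.19 with RLE. Cd36 was -0.26 with limma-voom and -0.27 with 10 libraries, Dgat1 -1.72 and -1.52, and Pnpla2 -0.13 with limma-voom. In bleomycin KO against bleomycin WT limma-voom gave 0.0051 for Fabp4, -0.091 for Fabp5, -0.052 for Lpl, 0.15 for Dgat1, 0.034 for Pnpla2 and 0.036 for Acsl4, and 10 libraries gave 0.20 for Fabp4, -0.051 for Fabp5, -0.16 for Lpl and 0.14 for Dgat1. In bleomycin KO against saline WT Fabp4 was 0.28 with 10 libraries and Pnpla2 -0.10 with limma-voom. With each library left out in turn, bleomycin WT against saline WT ranged over -0.30 to 0.69 for Fabp4, -0.017 to 1.38 for Cd36 and -1.32 to 2.54 for Dgat1. Bleomycin KO against bleomycin WT ranged over -0.58 to 0.18 for Fabp4, -0.071 to 0.38 for Fabp5, -0.18 to 0.19 for Lpl, -0.054 to 0.19 for Plin2, -3.62 to 0.12 for Dgat1, -0.21 to 0.17 for Pnpla2 and -0.38 to 0.34 for Il4ra. Bleomycin KO against saline WT ranged over -0.62 to 0.36 for Fabp4 and -0.51 to 0.17 for Cd36. Depth limits saline WT 2 most, where Fabp5 and Pnpla2 have 1 count each.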
